A study of Rattus norvegicus with 8 samples.

Results

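The genes described here are 6 classical targets of the aryl hydrocarbon receptor (AhR): the cytochrome P450 enzymes Cyp1a1, Cyp1a2 and Cyp1b1, the receptor's repressor Ahrr, the quinone reductase Nqo1 and the aldehyde dehydrogenase Aldh3a1. They were chosen by name, as the non-control spots that carry these symbols on the array, and make up 6 of 26257 distinct gene names. Each array holds 15 spots for them, 10 of which repeat the Cyp1a1 sequence. Pituitary RNA came from lactating Wistar rat dams at postpartum day 7, with 4 control dams and 4 dams exposed to TCDD, with 1 single-colour Agilent array per sample. Control is the only word the labels use for the first group, and the sources used here give no dose and no exposure day. The question is how dioxin affects messenger RNAs in the mother's pituitary.

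TCDD, a dioxin, is a ligand of AhR, a transcription factor that waits in the cytoplasm bound to heat shock proteins. On binding a ligand it enters the nucleus, pairs with Arnt and binds response elements that contain the letters GCGTG. The CYP1 enzymes oxidise aromatic compounds, Nqo1 and Aldh3a1 act on the quinones and aldehydes that arise, and Ahrr competes with AhR for Arnt in a feedback loop. Nqo1 is also a target of Nrf2, which binds the antioxidant response element.

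Controls were on slide 1 and TCDD samples on slide 2, 4 arrays each, and therefore slide and treatment cannot be told apart here. The 75th percentile of signal ran from 765 to 932 over the arrays, 71.1% to 73.9% of spots were well above background, and the correlation between any pair of arrays was 0.989 to 0.996 across probes. After a filter that kept probes well above background on 4 or more arrays, 17361 genes were tested. The tissue label was checked against 8 anterior pituitary markers, Prl, Gh1, Pomc, Cga, Lhb, Fshb, Tshb and Pou1f1, and all 8 were well above background on all arrays. The number of arrays limits the precision, and since the labels say no more of sampling than 4 rats a group, the p-values cover only the spread of these 8 samples.

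The probes are shown first because each value below is the signal of 1 short sequence of its transcript. The first 30 of the 60 bases of each were as follows, 5' to 3', in lower case.
Cyp1a1: caatagatttagataattcgcttagtgtaa
Cyp1a2: ttttcctttctttttaaataacagcttttt
Cyp1b1: taaaatccatgtgtctctcagagagtccat
Ahrr: atgcggtggtttgtactgcattggcaaaac
Nqo1: ttcaagaggagcagaaaaagaacaagtttg
Aldh3a1: acctcactcctccaaattccactgtttgct
In the rn4 build that the files name, the Cyp1a1 probe lies at chr8:61468133-61468192 on the plus strand and the Cyp1a2 probe at chr8:61439236-61439295 on the minus strand. The others lie at chr6:2548567-2548626 for Cyp1b1 (minus), chr1:29894853-29894912 for Ahrr (plus), chr19:37251727-37251786 for Nqo1 (minus) and chr10:47374814-47374873 for Aldh3a1 (plus). The exon or UTR of each was not determined here. The longest run of bases that a probe shared with another of the 6 was 6 to 8 bases, and no probe of another gene on the array shared a run of 20 bases on either strand. The Cyp1a1 and Cyp1a2 probes are poor in G and C, at 28.3% and 26.7%, against 41.7% to 46.7% for the other 4.

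Promoter sequences were read for the 4 of the 6 genes matched in a RefSeq table of the GRCr8 assembly, as the 250 bases before each annotated start, because the receptor acts through DNA at its targets. Letters in capitals mark a match, on either strand, to GCGTG (the core of the AhR response element) or to TNGCGTG, a longer form that contains it. The regions are chr1:30821969-30822218 for Ahrr (plus), chr6:21094315-21094564 for Cyp1b1 (plus), chr19:52220268-52220517 for Nqo1 (minus) and chr8:66978150-66978399 for Cyp1a2 (minus).
Ahrr: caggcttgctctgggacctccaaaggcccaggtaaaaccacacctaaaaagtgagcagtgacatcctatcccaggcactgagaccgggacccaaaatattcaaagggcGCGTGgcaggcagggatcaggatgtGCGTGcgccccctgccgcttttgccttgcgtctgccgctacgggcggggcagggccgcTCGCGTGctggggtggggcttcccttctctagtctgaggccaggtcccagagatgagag
Cyp1b1: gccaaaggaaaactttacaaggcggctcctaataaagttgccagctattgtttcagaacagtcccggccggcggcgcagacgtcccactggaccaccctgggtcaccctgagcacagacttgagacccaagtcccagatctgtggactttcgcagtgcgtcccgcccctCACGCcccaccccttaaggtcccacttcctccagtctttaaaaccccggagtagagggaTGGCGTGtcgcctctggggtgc
Nqo1: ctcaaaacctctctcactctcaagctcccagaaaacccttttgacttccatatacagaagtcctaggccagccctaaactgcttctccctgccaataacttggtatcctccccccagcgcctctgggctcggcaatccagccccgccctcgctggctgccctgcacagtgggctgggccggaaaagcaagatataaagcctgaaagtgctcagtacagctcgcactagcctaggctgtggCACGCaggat
Cyp1a2: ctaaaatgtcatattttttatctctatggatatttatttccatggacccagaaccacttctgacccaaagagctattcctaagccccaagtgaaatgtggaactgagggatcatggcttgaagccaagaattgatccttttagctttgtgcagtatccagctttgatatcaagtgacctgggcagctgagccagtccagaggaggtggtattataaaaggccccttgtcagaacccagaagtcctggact
Ahrr held 3 matches to GCGTG, whose first bases lie 142, 117 and 57 bases before the start, and the last of them is part of a match to TNGCGTG. Cyp1b1 held 2 matches, 81 bases (minus strand) and 20 bases before the start, the latter again within TNGCGTG. Nqo1 held 1 match, 10 bases before the start on the minus strand, and Cyp1a2 held none in this window. Of 33469 promoters of the same length 25.9% held at least 1 GCGTG, 8.12% at least 2 and 2.58% at least 3, while 4.09% held TNGCGTG. TGACNNNGC, the core of the antioxidant response element, was found in none of the 4 windows and in 10.1% of all promoters. The promoters of Cyp1a1 and Aldh3a1 were not read and the window is 250 bases, so matches were not set against the changes below. A match is a string of letters, not a site shown to be bound.

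Of the 6 genes, Cyp1a1 and Cyp1a2 rose on the TCDD arrays, from a signal not well above background on any control array to one well above it on every TCDD array. With each control raised to at least the dimmest signal well above background on its array, Cyp1a1 was 7.28-fold higher and Cyp1a2 2.88-fold higher. Such folds are called bounds below. The floor comes from all probes, not from these spots, and a bound carries no sampling error. Ahrr (bound of 1.68-fold, adjusted p = 0.196 by limma) and Nqo1 (2.13-fold, adjusted p = 0.179) had higher means on the TCDD arrays. So did Aldh3a1 (1.68-fold, adjusted p = 0.30) and Cyp1b1 (1.28-fold, adjusted p = 0.32), but none of them passed over all genes. Thus 2 of the 6 were called higher by limma's moderated test with Benjamini-Hochberg adjustment at 0.05, where 0.0576% of all genes tested were. Both calls were lost with quantile normalization (adjusted p = 0.0617 for each) and in the deposited table (0.0503 for each). With normexp background correction they were lost too (adjusted p 0.241 to 0.306), and with normexp and quantile normalization the fitted log2 change of Cyp1a1 went from 3.98 to 1.04 and that of Cyp1a2 from 3.65 to 0.57. At an unadjusted p under 0.05 the count was 6 of 6 against 7.76% of all genes. All 4 TCDD arrays lay above all 4 control arrays for Cyp1a1, Cyp1a2, Ahrr and Nqo1, that is 4 of 6, against 5.19% of all genes. Cyp1a1, Cyp1a2 and Ahrr passed the filter through their TCDD arrays alone, so they had to differ to be tested. With no filter on dim probes the counts were the same, 2 of 6 called against 0.0305% of 26257 genes and 4 of 6 without overlap against 4.01%. In whole tissue, more cells of a type and more RNA per cell cannot be told apart in any of these changes.

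**Figure D1:**
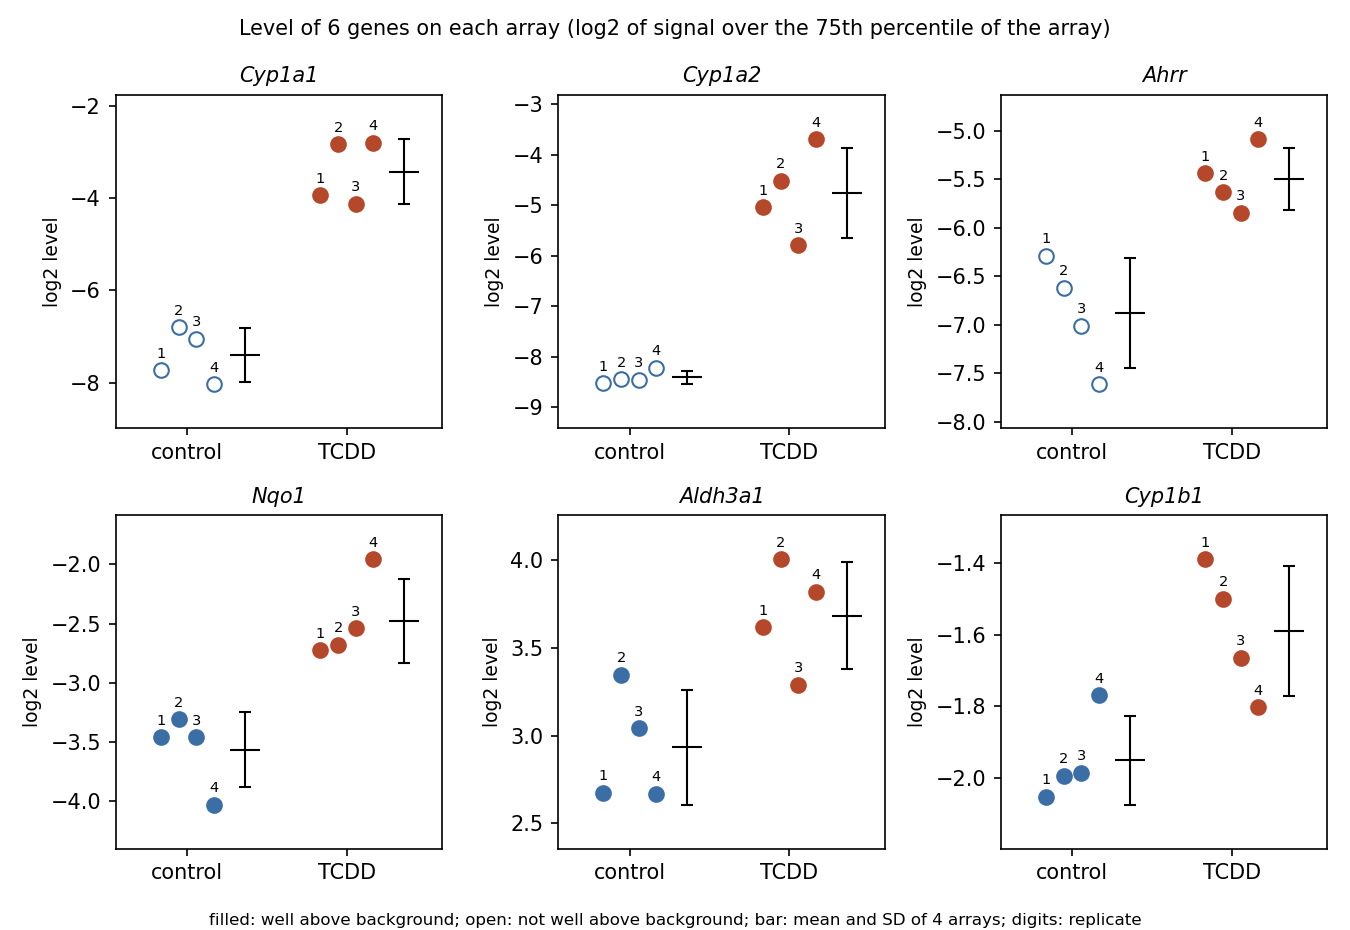
Log2 level of each gene on each array (log2 of the processed signal over the 75th percentile of that array), with the 4 control arrays in blue, the 4 TCDD arrays in red, the replicate number above each point, and the mean with SD at the side. Open points were not well above background. The groups do not overlap for Cyp1a1, Cyp1a2, Ahrr and Nqo1, and they overlap by 1 control array and 1 TCDD array for Aldh3a1 and for Cyp1b1.

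Cyp1a1, the P450 most often used as a readout of AhR activity, had log2 levels, relative to the 75th percentile of each array, of -7.74, -6.80, -7.04 and -8.03 on control arrays 1 to 4. On TCDD arrays 1 to 4 they were -3.93, -2.83, -4.12 and -2.80. The lowest TCDD array stood 2.68 above the highest control array on this log2 scale. The processed signal of its 10 spots spanned 2.31 to 8.99, 3.87 to 12.0, 2.28 to 11.2 and 2.48 to 4.15 units on the control arrays, counting spots in use, and 48.1 to 61.5, 96.7 to 116, 43.7 to 50.6 and 122 to 138 units on the TCDD arrays. On control array 2, 1 of the 10 spots was well above background, and it was left out as an outlier. On control arrays 1 to 4, respectively, 4, 0, 1 and 7 of the 10 spots carried a surrogate. A surrogate is the stand-in value that the scanner software writes where a spot cannot be told from background. The control mean of -7.40 ± 0.58 (SD, n = 4) rests in part on such values, with no array well above background, so the fitted log2 change of 3.98 (SE 0.39, adjusted p = 0.0281 by limma) depends on values near background and the fold is given as a bound.

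The repeat spots give the precision of the Cyp1a1 signal within an array. Their SD on the log2 scale was 0.12, 0.081, 0.070 and 0.055 on TCDD arrays 1 to 4, against 0.70 between the 4 arrays. The spots ran from -4.12 to -3.77 on array 1 and from -4.23 to -4.02 on array 3, so these arrays overlapped, and from -2.99 to -2.72 on array 2 and -2.88 to -2.70 on array 4, which overlapped too. Every spot of arrays 2 and 4 lay above every spot of arrays 1 and 3. The order within each pair is not resolved by the spots. Spots of an array share 1 hybridisation, so their SD holds measuring error alone and does not show whether the 4 samples differ more than dams usually do.

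**Figure D2:**
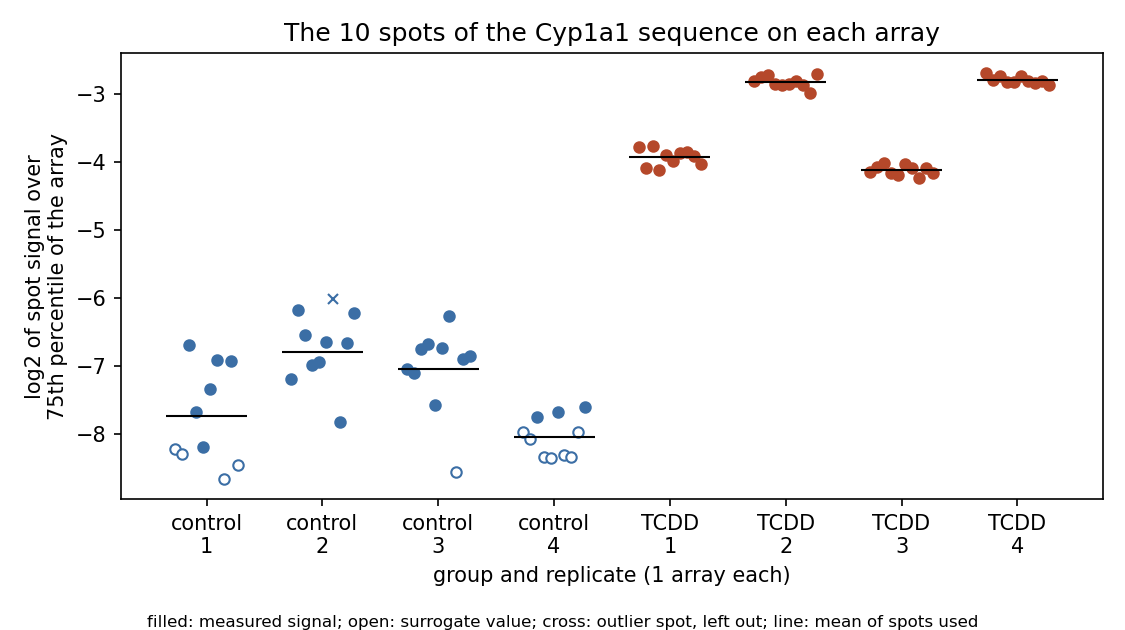
Each of the 10 Cyp1a1 spots on each array (vertical axis, log2 of the spot's processed signal over the 75th percentile of that array), with filled points for measured signals, open points for surrogate values, a cross for an outlier spot that was left out and a line at the mean of the spots used. The spots of TCDD arrays 2 and 4 all lie above those of TCDD arrays 1 and 3, and the control spots scatter more widely than the TCDD spots.

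Cyp1a2, the neighbouring P450 that is best known in liver, was at the floor on every control array. Its spot gave surrogate values of 2.53, 2.50, 2.44 and 2.70 units on control arrays 1 to 4. On TCDD arrays 1 to 4 it gave 25.6, 33.4, 14.8 and 69.5 units, with software errors of 3.67, 4.17, 2.87 and 7.33 units. These TCDD values are log2 levels of -5.04, -4.52, -5.79 and -3.69, and their range, 4.30-fold between array 4 and array 3, was the widest of the 6 genes and exceeded the spot errors of 10.5% to 19.4%. This place rests on array 4 and on the scaling: without TCDD replicate 4 the range was 2.42-fold, against 2.45-fold for Cyp1a1, and with both forms of normexp it was 1.63 and 1.57-fold against 1.68 and 1.66-fold. The control levels of -8.53, -8.44, -8.46 and -8.22 are surrogates, so their small SD of 0.13 describes the floor, and the groups stood 2.43 apart at their nearest arrays. The fitted log2 change was 3.65 (SE 0.39, adjusted p = 0.0288 by limma), and the bound on the fold was 2.88.

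Both calls rested on most of the arrays. By limma the adjusted p of Cyp1a1 lost the threshold without control replicate 1, 2 or 3 (0.0865, 0.0929, 0.13) and without TCDD replicate 1, 2 or 4 (0.0805, 0.0812, 0.0787). That of Cyp1a2 lost it without control replicate 1, 2, 3 or 4 (0.0866, 0.15, 0.13, 0.0667) and without TCDD replicate 1 or 2 (0.0934, 0.0974). Over the 8 omissions the bounds ran from 6.31 to 8.56 for Cyp1a1 and from 2.25 to 3.66 for Cyp1a2. In each such fit the smaller group held 3 arrays. In an exact two-sided permutation test each had a p of 0.0286, the smallest that 70 assignments of the arrays can give. Both genes passed the filter through their TCDD arrays alone, so this p was close to fixed in advance and adds no support.

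Cyp1b1, the member of the family known for expression outside the liver, was well above background on all 8 arrays and differed least. Its log2 levels were -2.05, -1.99, -1.98 and -1.77 on control arrays 1 to 4 and -1.39, -1.50, -1.66 and -1.80 on TCDD arrays 1 to 4. Control array 4 lay above TCDD array 4, so the groups overlapped, and the other 3 TCDD arrays lay above every control array. The fold was 1.28 (95% confidence interval 1.08 to 1.52), the log2 change 0.36 (SE 0.11) and the exact permutation p 0.0571. Over the omissions of 1 array the log2 change ran from 0.29 to 0.43, and the adjusted p by limma from 0.242 to 0.576.

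Ahrr, the repressor that AhR induces, was dim throughout. Its processed signal was 11.9, 8.88, 6.67 and 4.11 units on control arrays 1 to 4, none of them well above background, and 19.4, 15.4, 14.3 and 26.4 units on TCDD arrays 1 to 4, all of them well above it. The uncorrected spot was close to its surroundings, and on control array 3 no brighter than them, at 66.0 to 73.1 units over a local background of 58.5 to 69 in controls and 74.0 to 86.7 over 62 to 64 after TCDD. On the log2 scale the levels were -6.29, -6.62, -7.01 and -7.61 in controls and -5.44, -5.63, -5.84 and -5.09 after TCDD. The groups did not overlap, but their nearest arrays stood only 0.45 apart, less than the control SD of 0.57. The fitted log2 change of 1.38 (SE 0.28) did not pass over all genes (adjusted p = 0.196 by limma), and the bound ran from 1.53 to 1.82 over the omissions of 1 array. The exact permutation p was 0.0286, but Ahrr passed the filter through its TCDD arrays alone, so this p adds no support. With normexp background correction and quantile normalization the fitted change of Ahrr was 0.10 and the groups overlapped.

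Nqo1, which reduces quinones, was well above background on all 8 arrays. Its processed signal was 84.4, 87.8, 77.9 and 49.2 units on control arrays 1 to 4 and 127, 120, 141 and 231 units on TCDD arrays 1 to 4. Its log2 levels were -3.46, -3.31, -3.46 and -4.03 in controls and -2.73, -2.68, -2.54 and -1.96 after TCDD. No TCDD array overlapped a control array, and replicate 4 was the extreme array of both groups, lowest among controls and highest among TCDD arrays. The fold was 2.13 (95% confidence interval 1.52 to 2.98), with a log2 change of 1.09 (SE 0.21, adjusted p = 0.179 by limma) and an exact permutation p of 0.0286. Against the control mean, TCDD arrays 1, 2 and 3 stood at 1.79, 1.85 and 2.04-fold and array 4 at 3.05-fold. Without TCDD replicate 4 the SD of the TCDD arrays went from 0.35 to 0.096 and the log2 change to 0.92 (SE 0.17), and without control replicate 4 the change was 0.94 (SE 0.19).

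Aldh3a1, which oxidises aromatic and medium-chain aldehydes, was bright in both groups. Its log2 levels were 2.67, 3.35, 3.04 and 2.67 on control arrays 1 to 4 and 3.62, 4.00, 3.29 and 3.82 on TCDD arrays 1 to 4. Control array 2 lay just above TCDD array 3, and all other TCDD arrays lay above all controls. The fold was 1.68 (95% confidence interval 1.23 to 2.30), the log2 change 0.75 (SE 0.20, adjusted p = 0.30 by limma) and the exact permutation p 0.0571. Over the omissions of 1 array the log2 change ran from 0.64 without TCDD replicate 2 to 0.89 without control replicate 2.

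The sizes of the differences were set side by side as folds, not as levels, since probes differ in brightness. The bound for Cyp1a1, 7.28-fold, lay above the upper confidence limits of Nqo1 (2.98), Aldh3a1 (2.30) and Cyp1b1 (1.52). The bound for Cyp1a2, 2.88-fold, lay above those of Aldh3a1 and Cyp1b1 but within the interval of Nqo1. Without TCDD replicate 4 it was 2.25-fold, below the upper limit of Aldh3a1. Ahrr's bound of 1.68-fold lay within the intervals of Nqo1 and Aldh3a1, so these 3 could not be ordered. The bounds carry no sampling error while the limits do, and the single-array bounds of Cyp1a2 ran from 1.41 to 6.05-fold. The positions were not tested between genes.

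**Figure D3:**
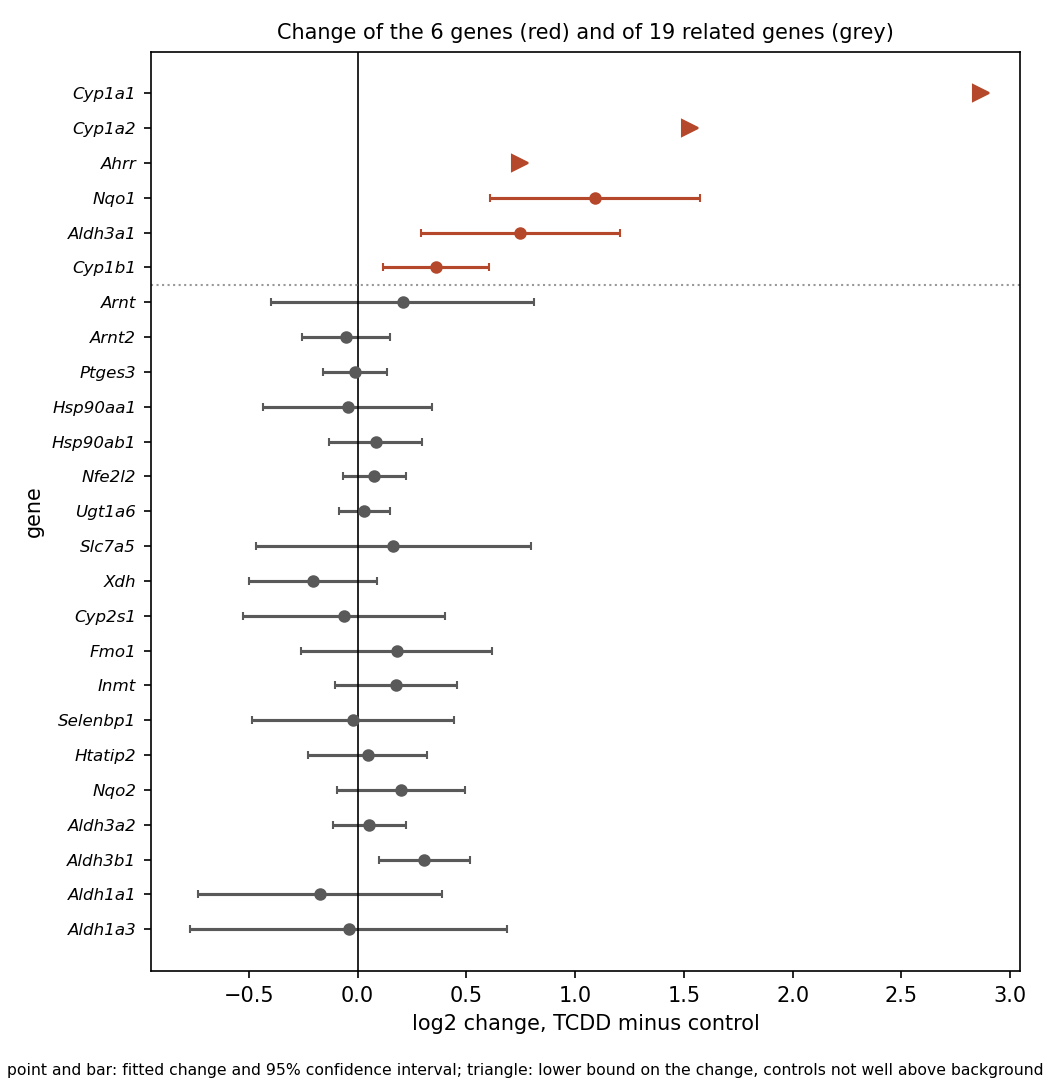
Log2 change, TCDD minus control, of the 6 genes (red) and of 19 of the 20 related genes that were tested (grey), as the fitted change with its 95% confidence interval. Triangles stand for lower bounds, drawn without an interval, where the controls were not well above background. Cyp1a1 has the largest bound, the intervals of Nqo1, Aldh3a1 and Cyp1b1 lie above 0, and among the related genes drawn only the interval of Aldh3b1 does.

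Over the TCDD arrays 4 of the 6 genes shared their lowest array, and 4 of the 6 their highest. The share of all genes with the same array lowest or highest was not computed. Array 3 was the lowest of the 4 for Cyp1a1, Cyp1a2, Ahrr and Aldh3a1, and it lay below the TCDD mean for all 6 genes. Array 4 was the highest for Cyp1a1, Cyp1a2, Ahrr and Nqo1, and it lay above the TCDD mean for 5 of the 6. Cyp1a1 and Cyp1a2 had the same order of arrays, 4, 2, 1, 3 from high to low. For Cyp1a1 the spots did not resolve 4 from 2 or 1 from 3. Aldh3a1 followed with 2, 4, 1, 3, while Ahrr ran 4, 1, 2, 3 and Nqo1 ran 4, 3, 2, 1. The Ahrr spot had errors of 13.6% to 20.5% on these arrays. It gave 15.4 units (error 3.08) on array 2 and 14.3 units (error 2.94) on array 3, so its lowest place was within spot error.

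Cyp1b1 ran the other way, 1, 2, 3, 4, with array 4 the lowest. On array 4 Cyp1b1 was 1.11-fold over the control mean, the smallest of its 4 values of 1.47, 1.36, 1.22 and 1.11, where Nqo1 had its largest. The deviation of array 4 from the TCDD mean was 0.62 for Cyp1a1, 1.07 for Cyp1a2, 0.41 for Ahrr, 0.52 for Nqo1, 0.14 for Aldh3a1 and -0.21 for Cyp1b1 on the log2 scale. That of array 3 was -0.70, -1.03, -0.34, -0.07, -0.39 and -0.08 in the same order of genes. With 4 arrays no correlation between genes was computed, and arrays of 1 sample each do not show how far 1 dam would vary on repeat.

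Against the background floor, the single-array bounds for Cyp1a1 were 5.11, 11.0, 4.48 and 11.2-fold on TCDD arrays 1 to 4. Those for Cyp1a2 were 2.38, 3.41, 1.41 and 6.05-fold, and those for Ahrr 1.75, 1.53, 1.32 and 2.24-fold. For Aldh3a1 the folds over the control mean were 1.61, 2.10, 1.28 and 1.85. From the highest to the lowest TCDD array the spread was 4.30-fold for Cyp1a2, 2.50-fold for Cyp1a1, 1.71-fold for Nqo1, 1.69-fold for Ahrr, 1.64-fold for Aldh3a1 and 1.33-fold for Cyp1b1, with the dependence on array 4 given above for Cyp1a2. Among all genes tested, the SD over the TCDD arrays of Cyp1a1 stood at the 97.3 percentile and that of Cyp1a2 at the 98.5 percentile, with Nqo1 at 87.5, Ahrr at 85.1, Aldh3a1 at 83.6 and Cyp1b1 at 63.1. The control SD of Cyp1a1, near background, stood at the 96.0 percentile. Cyp1a2 and Ahrr were among the dimmest genes tested, at the 0.0518 and 0.783 percentiles of mean level, so these SDs include more measuring error than those of bright genes.

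The order of arrays was recomputed under 6 ways of scaling and background correction, the main one included. Array 3 was the lowest for Cyp1a1, Cyp1a2, Ahrr and Aldh3a1 and array 4 the lowest for Cyp1b1 under all 6. Array 4 was the highest for Cyp1a2 and Nqo1 under all 6, while for Cyp1a1 array 2 took its place with quantile normalization, in the deposited table and with normexp correction scaled to the 75th percentile. For Ahrr array 2 took it with the last of these.

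**Figure D4:**
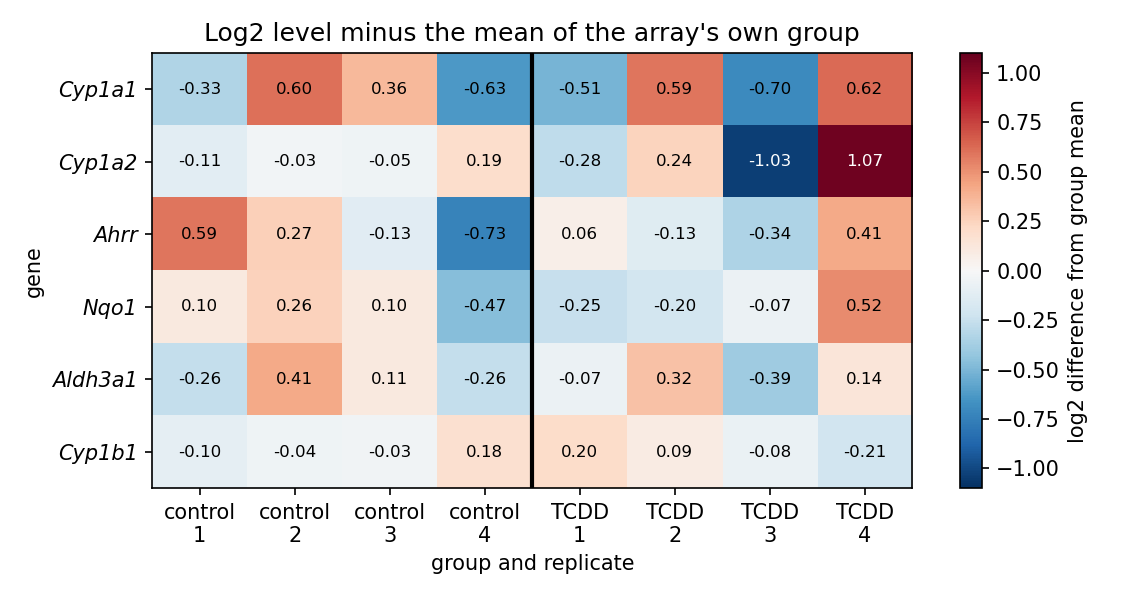
Log2 level of each gene (rows) on each array (columns) minus the mean of the array's own group, in red where above the mean and in blue where below. TCDD array 3 is below the TCDD mean in all 6 rows and TCDD array 4 above it in every row but that of Cyp1b1, and control values of Cyp1a2 are surrogates.

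Among the controls, array 4 was the lowest for Cyp1a1, Ahrr, Nqo1 and Aldh3a1 (for which array 1 was at 2.67 too) and the highest for Cyp1b1. For Cyp1a2 the order of controls is that of surrogate values and has no meaning. Cyp1a1 and Ahrr were not well above background there either, so of these genes only Nqo1, at 49.2 units against 77.9 to 87.8, Aldh3a1 and Cyp1b1 give a measured order.

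The other genes of the pathway were taken from a list of 24. That list also holds relatives of the 6 genes in quinone and aldehyde metabolism, Nqo2, Aldh3a2, Aldh3b1, Aldh1a1 and Aldh1a3. Of the 24 genes, 20 were tested and 0 passed by limma in either direction, where 0.0806% of all genes did. At an unadjusted p under 0.05 by limma the count was 1 of 20, against 10.7% of all genes in either direction. Their median log2 change was 0.05, against 0.02 for all genes tested, with 12 higher and 8 lower. The exception at the unadjusted level was Aldh3b1, a relative of Aldh3a1. Its log2 levels were -0.89, -1.05, -0.84 and -1.13 in controls and -0.71, -0.82, -0.59 and -0.57 after TCDD, without overlap, for a log2 change of 0.31 (SE 0.09, adjusted p = 0.32).

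Of the receptor's own complex, Arnt, its partner, had a log2 change of 0.21 (SE 0.26), Arnt2 -0.05 (SE 0.09), Ptges3 -0.01 (SE 0.06), Hsp90aa1 -0.04 (SE 0.17) and Hsp90ab1 0.08 (SE 0.09). The Arnt probe was dim, at the 1.85 percentile of mean level, and was well above background on 3 control and 3 TCDD arrays. The Ahr probe was not well above background on any of the 8 arrays, and so Ahr was not tested. Gsta2, a glutathione transferase, and Scin, an actin-binding protein, were likewise not well above background on any array. No spot was named Tiparp, and a transcript with Tiparp in its description, an ADP-ribosyltransferase that AhR induces, had a log2 change of -0.08 (SE 0.08, adjusted p = 0.77). Of other known responders, Ugt1a6, a glucuronosyltransferase, changed by 0.03 (SE 0.05) on the log2 scale, Nfe2l2, which encodes Nrf2, by 0.08 (SE 0.06), the amino acid transporter Slc7a5 by 0.16 (SE 0.27) and xanthine dehydrogenase, Xdh, by -0.21 (SE 0.13). Nqo2, the relative of Nqo1, stood at 0.20 (SE 0.13).

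Cyp2s1, a P450 outside the family that AhR also induces, was measured by 3 probes that did not give the same picture. The brightest had a log2 change of -0.06, another 0.19 and the dimmest 1.00. The dimmest probe was well above background on 1 of 4 control and 4 of 4 TCDD arrays, with log2 levels of -6.46, -6.28, -6.11 and -6.45 in controls and -4.66, -5.94, -4.42 and -6.27 after TCDD. Its high arrays were TCDD arrays 1 and 3, on which Cyp1a1 was lower than on arrays 2 and 4. This probe was looked at because it stood apart, and it was not tested.

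For 4 of the genes the 3 genes with the most similar values over the 8 arrays were listed, by Pearson's r among tested genes with a symbol. For Cyp1a1 they were Cyp1a2 (0.97), Tmem178a (0.96) and Marcksl1 (0.96), and for Cyp1a2 they were Prrg3 (0.98), Or10g9b (0.97) and Cyp1a1 (0.97). For Nqo1 they were Ap2s1 (0.98), Ubl5 (0.96) and Msrb1 (0.96), and for Ahrr they were Mtnr1a (0.97), Dppa2 (0.96) and Tank (0.96). Such an r is a description over 8 arrays that fall into 2 groups, picked as the highest among 12476 genes with a symbol. For Cyp1a1, Cyp1a2 and Ahrr the control values behind it are surrogates or not well above background, and these genes passed the filter through their TCDD arrays alone. None of the listed genes other than Cyp1a1 and Cyp1a2 passed the test between groups.

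Markers of other cells in the tissue were read on the same arrays, and 0 of the tested markers passed by limma in any of 8 lists, with 9 of 42 at an unadjusted p under 0.05 (10.7% of all genes), namely the 5 erythrocyte markers given next, Fshb, Pou1f1, Avp and Esam. Of 9 erythrocyte markers 5 were tested, and all 5 were higher on average after TCDD: Hbb by 0.53, Hbb-b1 by 0.77, Hba-a1 by 0.53, Slc4a1 by 1.39 and Alas2 by 1.31 on the log2 scale, with adjusted p from 0.122 to 0.40. Their summed level, in multiples of the 75th percentile, was 304 to 551 in controls and 438 to 664 after TCDD. Control array 4, at 551, lay within the TCDD range. Among controls it was the lowest in Nqo1 and the highest in Cyp1b1, and in Aldh3a1 it and control array 1 were both at 2.67. Its levels of Cyp1a1 and Ahrr, like those of the other controls, were not well above background. The sums of the 7 tested of 8 endothelial markers were 4.82 to 5.98 in controls and 4.75 to 6.47 after TCDD, and TCDD array 2, high in Cyp1a1, had the lowest. Those of the 7 stroma and pericyte markers were 6.42 to 8.67 and 7.62 to 12.0, with TCDD array 4 the highest. A sum gives the brightest markers the most weight. With equal weight, as the mean log2 level relative to the 8 arrays, TCDD array 1 was the highest for stroma and pericytes (0.33, against 0.095 for array 4).

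The hepatocyte markers Alb, Serpina1, Cyp2c11, Cyp3a2 and Tat did not pass the filter. Apoa1 and Ttr, the 2 of 7 that were tested, were well above background on 3 control and 2 TCDD arrays each, with sums of 0.0298 to 0.0539 in controls and 0.0182 to 0.0656 after TCDD. The sums of the other lists overlapped as well: 1438 to 1449 and 1284 to 1657 for anterior pituitary, 2.33 to 6.21 and 2.34 to 3.75 for posterior lobe and neural markers, 4.07 to 6.29 and 4.74 to 6.12 for folliculostellate and stem markers, and 5.51 to 12.8 and 7.04 to 13.6 for leukocytes. The part of red blood cells, stroma or any other cell type in the changes of the 6 genes was not tested.

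**Figure D5:**
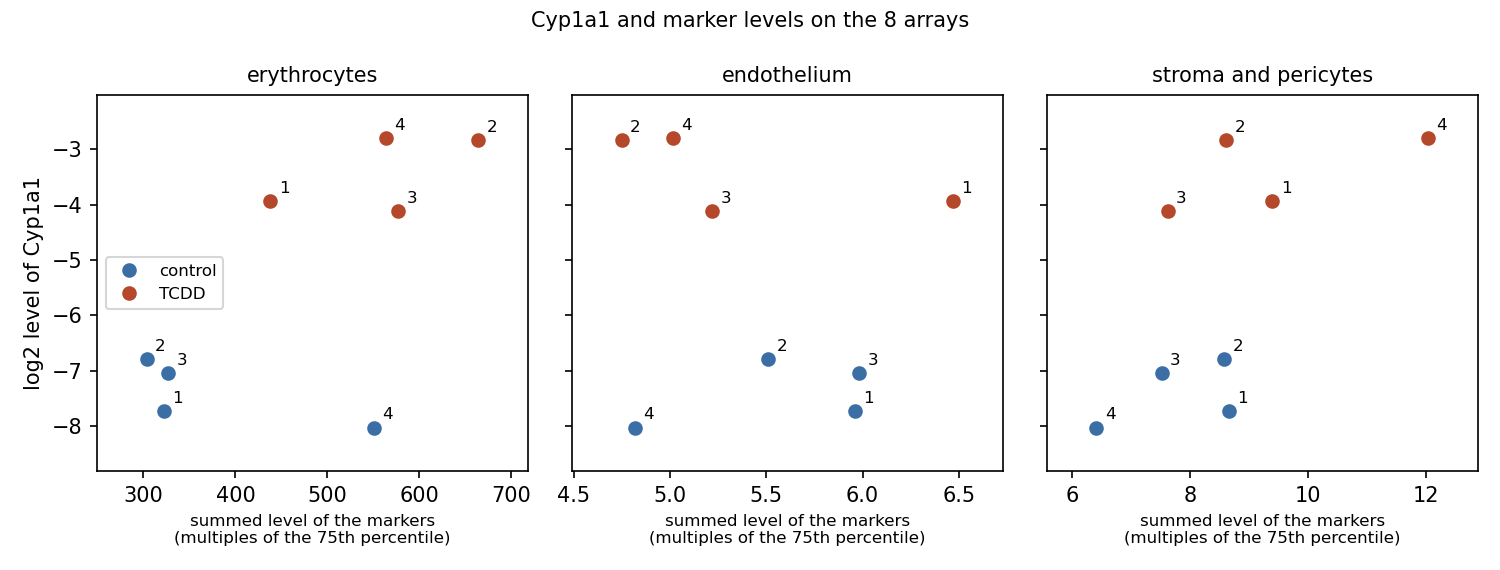
Log2 level of Cyp1a1 on each array (vertical axis) against the summed level of erythrocyte, endothelial and stroma markers (horizontal axes, multiples of the 75th percentile of the array), with the replicate number beside each point. The erythrocyte sums are 304 to 551 in controls and 438 to 664 after TCDD, and the sums of the groups overlap in each panel. A sum gives the brightest markers the most weight. The control levels of Cyp1a1 were not well above background.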

How the data were processed

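Cy3-labelled pituitary RNA was hybridised to 8 arrays, per the labels' protocols. The authors deposited Agilent Feature Extraction 10.7.1.1 output, which holds background-subtracted linear intensity per spot with surrogates for dim spots, per the file headers. A deposited table of linear intensity, whose columns share 99.3% or more of their sorted values and a median of 56.3, was an alternative; how it was centred or scaled is not given in the sources used here.

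Log2 of the processed signal minus the 75th percentile of the array over non-control spots was taken, outlier spots were left out and spots of a probe averaged. A probe was taken as well above background on an array if 50% or more of its spots were. It was kept if well above background on 4 or more arrays, and the brightest kept probe stood for a gene. Names came from the files, updated by accession (18006 probes), symbol (2654) or older symbol (559) through RefSeq, and 9148 probes kept the name in the files. Groups followed the agent in the labels. limma 3.58.1 in R 4.3.3 was fitted over 17361 genes with group as the only term, two-sided. For a bound on a fold, each control array contributed its probe value or, if higher, the dimmest signal that was well above background on it, and the TCDD mean was set against the mean of these. The members and lists were chosen with earlier results of these data known. The text names the 6 genes, the pathway list (1 member of which is counted but not reported here) and, for 4 genes, the 3 most similar. Cyp2s1's other probes were added after their values were seen. Alternatives covered scaling, normexp (offset 50), the filter, probe summary, outlier spots, array weights, the model of variance, the replicate block, the deposited table and each array left out. On simulated data with 17361 genes the fit called 70%, 82%, 94% and 96% of 50 genes each changed by 1.5, 2, 4 and 8-fold, with 11 calls among unchanged genes. The simulated set held more changed genes than the 14 called in the data, which eases the adjustment. These shares are therefore not the power of the real fit, in which Nqo1, at 2.13-fold, had an adjusted p of 0.179 by limma. Same-numbered control and TCDD arrays did not deviate together (correlations -0.10 to -0.02), so the numbers were not taken as pairs.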

Additional observations from a re-analysis of the deposited data

Results flagged for a closer look

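Among 68 groups of 4 arrays checked for an array far from the other 3 (the 6 genes, the tested pathway genes and the marker sums), 5 had a gap over the range above Dixon's 95% critical value, and chance alone sets apart about 5% of groups. None of the 6 genes was among them. Arnt was low on TCDD array 4 (0.888), Selenbp1 was low on control array 4 (0.847) and Aldh3a2 was high on TCDD array 4 (0.943). The erythrocyte sum was high on control array 4 (0.907) and the hepatocyte sum, of 2 dim markers, was high on control array 2 (0.944).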

How the results depend on the processing

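The log2 changes of the 6 genes were recomputed 117 times over the alternatives and were above 0 in all 117. Cyp1a1 ranged from 1.04 to 4.21 (adjusted p 0.0203 to 0.322, under 0.05 in 8 of 19 alternatives) and Cyp1a2 from 0.57 to 4.00 (0.0203 to 0.322, 8 of 19). Cyp1b1 ranged from 0.29 to 0.43, Ahrr from 0.10 to 1.58, Nqo1 from 0.72 to 1.18 and Aldh3a1 from 0.64 to 0.89, with adjusted p from 0.109 to 0.591. The low ends of Cyp1a1, Cyp1a2, Ahrr and Nqo1 came with normexp. Normexp started from the mean spot signal and local background in place of the processed signal, and it added an offset of 50. The part of each in the smaller changes was not tested.

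Of the 6 genes, 2 were called higher, and the count fell to 0 with quantile normalization, both forms of normexp, the deposited table and the replicate block. It was also 0 with the filter that asks for all 8 arrays, which leaves out Cyp1a1, Cyp1a2 and Ahrr and gives a count of 1 for genes without overlap. Leaving out 1 array gave 0 to 2, and for non-overlap 4 to 5, where a group of 3 overlaps less easily and the share of all genes was 6.68% to 9.13% in place of 5.19%. At an unadjusted p under 0.05, limma's count was 3 of 3 tested with that filter, 5 of 6 with both forms of normexp and 6 of 6 elsewhere. Over all genes 10 were called higher and 4 lower. The counts were 0 and 1 with quantile normalization and in the deposited table, 0 and 0 with both forms of normexp and with the replicate block, 2 and 2 with the trended robust variance and 20 and 10 with array weights. With median centring 5 were higher. Leaving out 1 array gave 0 to 9 higher and 0 to 3 lower. Pathway genes called stayed at 0 in these settings (1 to 2 at an unadjusted p under 0.05). With the replicate block, the adjusted p of Cyp1a1 and Cyp1a2 was 0.322; the numbers do not pair the arrays. The bounds for Cyp1a1, Cyp1a2 and Ahrr with quantile normalization were 7.01, 2.78 and 1.62 and with median centring 7.09, 2.81 and 1.64, alternatives chosen after seeing the data. Of 36 SDs over the TCDD arrays 6 moved by over 1.5 times, 3 of them with normexp. The cause of the changes between settings was not tested. Signal over background limits what can be said of Cyp1a1, Cyp1a2 and Ahrr in controls.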
